A study of Mus musculus with 18 samples.

Results

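The epidermal growth factor (EGF) receptor, its relatives, its ligands and one of its inhibitors were followed at the RNA level through the colonic epithelium of wild-type mice and of mice lacking one of a pair of Rab11 adaptor proteins. The set holds 10 genes of the 54532 in the deposited count table, taken by gene name: the receptors Egfr, Erbb2 and Erbb3, the ligands Hbegf, Areg, Ereg, Btc, Tgfa and Egf, and the receptor inhibitor Errfi1. All 10 had enough counts to be tested. Polyadenylated RNA came from epithelial cells freed from the colon with 30 mM EDTA. There were 6 groups of 3 libraries: wild-type BL6J, Rab11-FIP1 knockout (FIP1 knockout) and Rab11-FIP2 knockout (FIP2 knockout) mice, each sampled in the distal and the proximal colon, with no treatment. FIP1 and FIP2 attach to Rab11, a small GTPase of the recycling endosome, the compartment that returns proteins to the cell surface. Age, sex, the knockout alleles and the number of mice behind each group are not given in the sources used here, so the p-values measure the spread between these libraries, which may be technical.

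EGF receptor ligands are made as membrane-anchored precursors and are cut loose by surface proteases, chiefly Adam17 and Adam10. A bound ligand pairs the EGF receptor with itself or with ErbB2, which has no known ligand, or ErbB3, whose kinase is weak, and the pair signals through the Ras-ERK and PI3K-Akt pathways. Errfi1 (Mig6) is itself induced by the active receptor and blocks its kinase. In the gut these ligands support epithelial growth and the repair of wounds, and the receptor is sorted between degradation and recycling after it is taken up. RNA levels say nothing of the protein at the surface.

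Library totals ran from 11193308 to 22062300 counts. All 12 genes of a colon epithelium list were counted in every group. Rab11fip1, the gene targeted in the FIP1 knockout, was lower there by -1.25 ± 0.22 on the log2 scale (standard error, SE, of a log2 difference, here and below; adjusted p 0.000697) in the distal colon, and Rab11fip2 by -1.07 ± 0.27 (adjusted p 0.0106) in the distal FIP2 knockout. Both were still counted, and counts over a whole gene do not check a knockout allele. Wild-type proximal library 2, with the lowest total, stood apart: a list of 8 forebrain neuron genes summed to 134 CPM, counts scaled to the same library total, there and to 24.4 to 54.3 CPM in the other libraries. Values of members compared with proximal wild type are also given without that library. The same 8 genes also differed between distal groups. In the distal FIP2 knockout 6 were called lower (adjusted p under 0.05) and none higher than in wild type. Their median log2 difference was -3.16, and 18.5% of all genes were called. In the distal FIP1 knockout none was called against wild type, and 2 were higher than in the FIP2 knockout (1.86% of all genes called). These distal libraries stay in when wild-type proximal library 2 is left out. The share of mitochondrially encoded counts was 24.4 ± 7.24% (SD, n = 3) in distal and 23.9 ± 3.35% in proximal wild type against 13.9 to 17.3% in the mean of the knockout groups. Removing those genes changed none of the 110 member calls. Genes of immune cells were also higher in the knockouts, and their part in the results below was not tested. The list of 13 T cell and innate lymphocyte genes summed to 17.2 to 34.1 CPM in distal wild type, 53.7 to 92.8 CPM in the distal FIP1 knockout and 51.1 to 70.6 CPM in the distal FIP2 knockout. The proximal sums were 29.7 to 37.9, 62.5 to 103 and 183 to 226 CPM. The list of 7 B and plasma cell genes summed, in the same order, to 6.27 to 36.1, 271 to 428 and 37.5 to 49.8 CPM distally and to 6.45 to 17.0, 29.6 to 288 and 267 to 400 CPM proximally. The 5 neutrophil genes summed to 76.8 to 171, 201 to 234 and 222 to 280 CPM distally, with S100a8, S100a9 and Cxcr2 at 0 in distal wild type, and to at most 12.5 CPM in any proximal library. The distal wild-type sum thus came from Csf3r and Ly6g alone. Only 2 of the 5 had enough counts to test, and 1 was called higher in each distal knockout (16.3% and 18.5% of all genes called). Other lists had lower sums in some knockout groups. Endothelial genes summed to 12.5 to 29.2, 6.18 to 11.5 and 4.27 to 6.10 CPM distally and to 5.16 to 8.56, 3.48 to 9.59 and 5.89 to 10.3 CPM proximally. Enteric neuron and glia genes summed to 7.07 to 10.97, 7.25 to 10.1 and 4.13 to 4.54 CPM distally and to 10.8 to 36.3 (the highest in wild-type library 2), 2.08 to 6.62 and 3.43 to 5.50 CPM proximally. Mast cell genes summed to 42.0 to 59.1, 53.7 to 61.6 and 27.8 to 43.2 CPM distally. Proximally they summed to 55.5 to 61.2, 54.7 to 135 and 48.9 to 65.1 CPM. These sums did not show the change of most single genes. Of the 5 mast cell genes tested, 4 had a positive difference from wild type in every knockout group. Median log2 differences were 3.15 (FIP1) and 2.52 (FIP2) distally, and 4.04 and 3.01 proximally. Distally 4 (FIP1) and 3 (FIP2) were called up and 1 down in each (16.3% and 18.5% of all genes called). Proximally 3 and 2 were called up and none down (13.6% and 14.7%). Mcpt4 and Fcer1a stood at 0 in both wild-type groups. Sums of the mesenchymal lists overlapped between genotypes in both segments: fibroblast genes summed to 15.4 to 45.7, 32.5 to 121 and 20.9 to 38.1 CPM distally and to 26.3 to 57.7, 45.4 to 67.8 and 30.7 to 65.3 CPM proximally, and smooth muscle genes to 2.15 to 23.3, 8.24 to 28.4 and 3.33 to 17.98 CPM distally and to 2.09 to 18.7, 8.63 to 23.7 and 6.86 to 10.5 CPM proximally. Of 7 fibroblast genes tested, 2 were called higher and none lower in the distal FIP1 knockout (16.3% of all genes called). The median log2 difference of the fibroblast genes there was 1.63. No fibroblast gene was called against wild type in the other knockout groups, and no smooth muscle gene in any. The epithelial list summed to 13331 to 18630, 18211 to 23078 and 20431 to 21423 CPM distally. Its proximal sums were 32854 to 39768, 34584 to 45958 and 30680.5 to 36308 CPM. Of its 12 genes, 2 were called higher and none lower in the distal FIP1 knockout (16.3% of all genes called). In the distal FIP2 knockout 4 were higher and 1 lower (18.5%), and proximally none was called against wild type.

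The 10 genes lie on 7 chromosomes, and 3 of the ligand genes are neighbours on chromosome 5 of the mouse build GRCm38. Ereg (chr5:91074622-91093646), Areg (chr5:91139599-91148432) and Btc (chr5:91357261-91402994) follow Epgn (chr5:91027464-91035215), a further ligand gene, with gaps of 39406, 45952 and 208828 bp. Upstream sequence from RefSeq (GRCm38.p6) was matched for 7 of the 10 genes, in 9 windows of 300 bases around a transcription start. Hbegf, Ereg and Erbb3 had no window and were not searched. The full cAMP response element (CRE), TGACGTCA, occurred in 1.79% of all 32851 such windows and, among the 9, in that of Areg and in one of the Errfi1 windows. The AP-1 element TGANTCA, searched on both strands, occurred in 7.81% of all windows and in none of the 9. The windows shown are those of the 9 that hold the CRE. Each runs 5′ to 3′ over the 250 bases before the start, with the CRE in capitals. It sits 61 to 54 bases before the start of Areg (chr5:91139349-91139598, plus strand) and 51 to 44 bases before the second start of Errfi1 (chr4:150854820-150855069, plus strand), which lies within the annotated bounds of the gene. A match of letters is not a binding site, and no factor was measured.
Areg: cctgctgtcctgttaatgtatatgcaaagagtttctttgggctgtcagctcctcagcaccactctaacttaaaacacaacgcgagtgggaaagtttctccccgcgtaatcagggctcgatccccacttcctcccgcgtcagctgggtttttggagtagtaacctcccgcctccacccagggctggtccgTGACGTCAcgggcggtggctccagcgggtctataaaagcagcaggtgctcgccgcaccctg
Errfi1: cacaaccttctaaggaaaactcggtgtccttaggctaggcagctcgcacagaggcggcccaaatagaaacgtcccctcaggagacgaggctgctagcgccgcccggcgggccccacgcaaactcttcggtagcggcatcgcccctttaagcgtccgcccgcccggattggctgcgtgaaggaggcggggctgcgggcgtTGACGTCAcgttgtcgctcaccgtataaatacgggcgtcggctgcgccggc

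Per length, Errfi1, Erbb3 and Erbb2 had the highest deposited levels, and Areg, a ligand, came before Egfr. On the FPKM scale (fragments per length and library total, as deposited), the mean over the 18 libraries was 48.8 ± 12.1 (SD, n = 18) for Errfi1, 43.3 ± 15.98 for Erbb3, 38.6 ± 16.8 for Erbb2 and 19.0 ± 6.35 for Egfr. Areg was the most abundant ligand at 24.4 ± 14.6 FPKM. Tgfa followed at 11.9 ± 2.66, Hbegf at 8.51 ± 3.86, Btc at 4.37 ± 3.15, Egf at 2.01 ± 0.899 and Ereg at 1.48 ± 1.84 FPKM. The order of neighbours depended on the gene length used, since the deposited lengths are shorter than the annotated ones for 6 of the genes. With the annotated length, Erbb3 at 43.3 came before Errfi1 at 30.1, and Areg at 24.4 and Erbb2 at 24.3 were nearly level. Egfr came to 4.95 and Tgfa to 3.62, both below Hbegf at 8.51, and Egf to 0.440, below Ereg. Among the 9 members counted in every library, the range of CPM was widest for Btc, at 12.9-fold, and Areg, at 8.55-fold, and narrowest for Tgfa, at 2.22-fold. Ereg had a wider range than these and ran from 0 counts in distal wild-type library 2 (3 counts there would be 0.216 CPM) to 29.6 CPM.

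**Figure D1:**
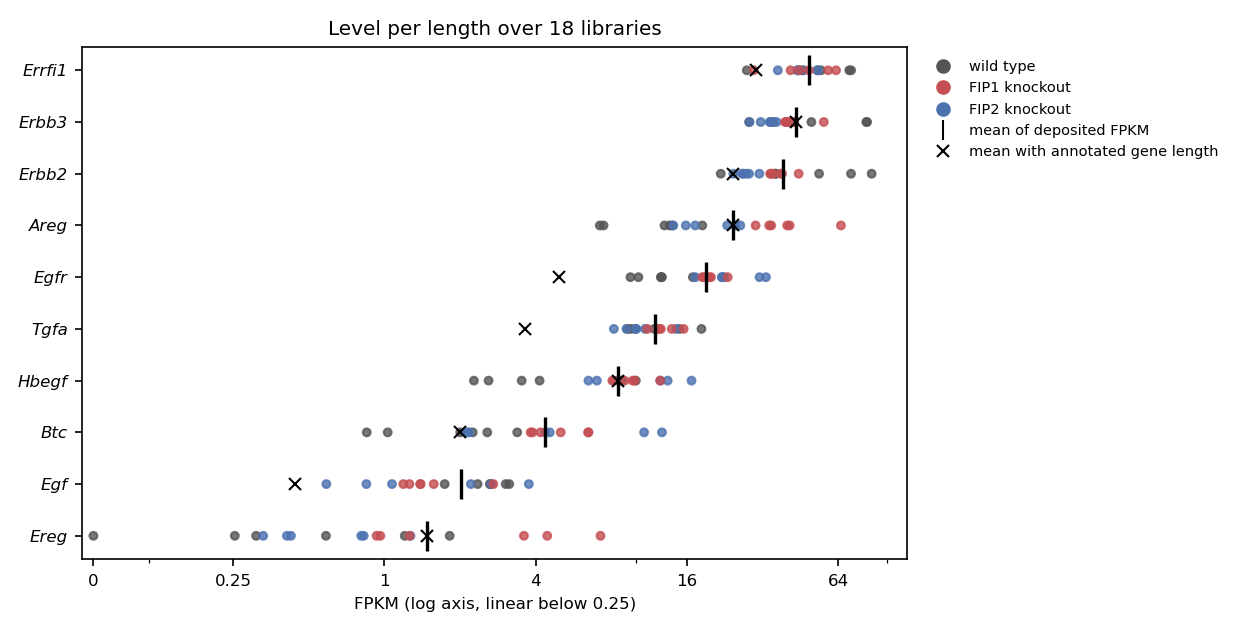
Deposited FPKM of the 10 genes in all 18 libraries (points, coloured by genotype), on a log axis that is linear below 0.25, with the mean of the deposited values (bar) and the mean recomputed with the annotated gene length (cross). Errfi1, Erbb3 and Erbb2 are highest and Egf and Ereg lowest, and the cross sits far left of the bar for Egfr, Tgfa and Egf.

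Against distal wild type, the FIP1 knockout had 4 of the 10 genes higher and 1 lower, where 8.84% of the 17692 tested genes were called higher, 7.47% lower and 16.3% in all. In the distal FIP2 knockout 2 were higher and 1 lower, against 9.13%, 9.38% and 18.5% of all genes. In the proximal colon, 2 were higher and none lower in the FIP1 knockout (6.7% of all genes called higher, 6.89% lower, 13.6% in all), and 1 was higher and 2 were lower in the FIP2 knockout (7.6%, 7.07% and 14.7%). A call is an adjusted p under 0.05 by edgeR's quasi-likelihood test with Benjamini-Hochberg adjustment over all tested genes. Without wild-type proximal library 2 the proximal counts were 3 higher and 1 lower for FIP1, and 2 higher and 4 lower for FIP2, and the distal FIP2 count was 3 higher and 3 lower (the fit pools the spread of all libraries). The share of all genes called without it was 12.7% in the proximal FIP1, 19.6% in the proximal FIP2 and 22.3% in the distal FIP2 comparison. Over all tested genes, the libraries of the compared groups did not overlap for 35.8% and 26.6% in the distal and proximal FIP1 knockout and for 37.6% and 29.3% in the FIP2 knockout. Both knockouts are compared with the same 3 wild-type libraries of a segment. The median log2 difference of the 10 genes was 0.44 in the distal FIP1 knockout, 0.06 in the proximal FIP1 knockout, 0.44 in the distal FIP2 knockout and -0.35 in the proximal FIP2 knockout, beside medians over all genes of -0.0022, -0.012, 0 and -0.020.

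**Figure D2:**
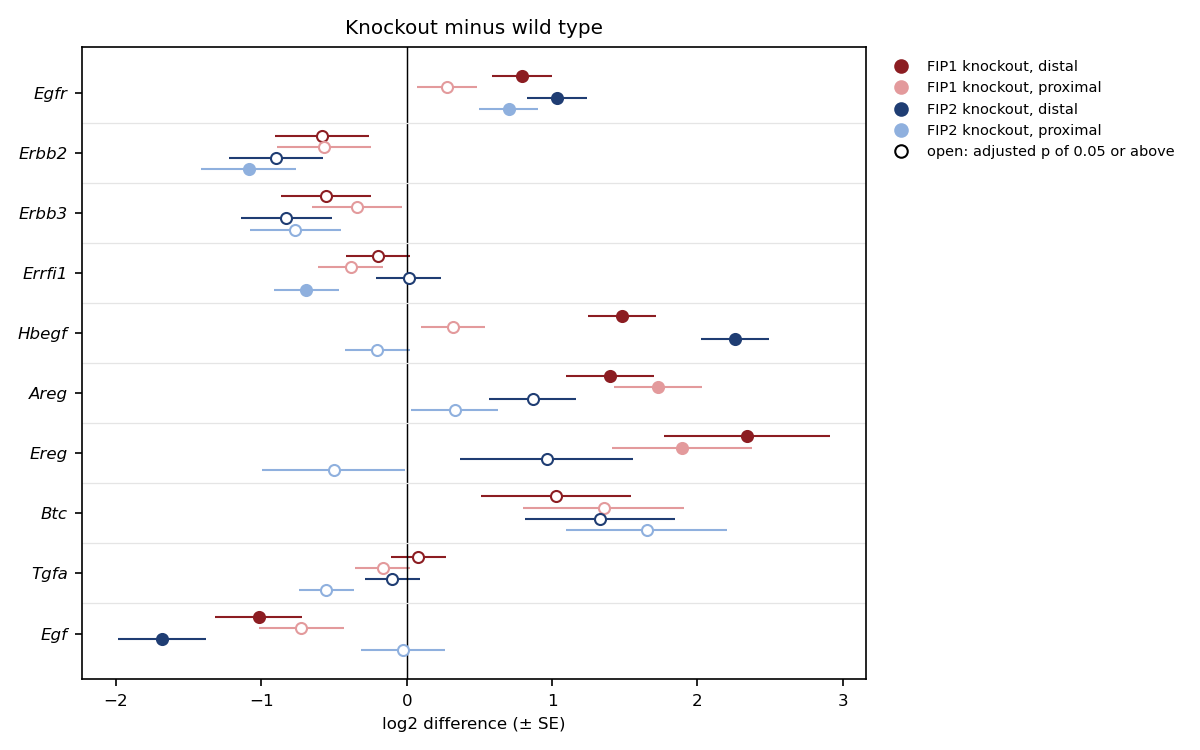
Log2 difference of knockout minus wild type (± SE) for each gene in each segment, filled where the adjusted p is under 0.05. Hbegf is to the right of 0 in both distal comparisons and near 0 in both proximal ones. Areg and Ereg are each farther right in the FIP1 than in the FIP2 knockout, and Egf is left of 0 distally.

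Among the receptors, Egfr (chr11:16752203-16918158), the receptor for all 6 ligands of the set, was higher in both distal knockouts and in the proximal FIP2 knockout. In the distal colon it stood at 35.2, 30.5 and 31.8 CPM in the wild-type libraries, at 51.9, 68.5 and 48.9 CPM in the FIP1 knockout and at 83.9, 50.6 and 65.3 CPM in the FIP2 knockout. Every knockout library was above every wild-type library. The difference was 0.79 ± 0.21 for the FIP1 knockout (adjusted p 0.0123), lost only without FIP1 knockout distal library 2 (0.61, adjusted p 0.0858, the highest of the 27 alternatives, with the lowest at 0.000443). For the FIP2 knockout it was 1.03 ± 0.21 (adjusted p 0.00194), called in all 27 alternatives.

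In the proximal colon Egfr stood at 39.4, 61.3 and 39.3 CPM in wild type, at 58.3, 60.1 and 50.9 CPM in the FIP1 knockout and at 92.3, 65.5 and 69.1 CPM in the FIP2 knockout. Wild-type library 2, the one that stands apart, was the highest of its group and overlapped the FIP1 knockout but not the FIP2 knockout. The FIP2 difference was 0.70 ± 0.21 (adjusted p 0.0279) and 0.95 without that library. The call was lost without wild-type library 1 (0.60, adjusted p 0.112) or 3 (0.60, 0.115), without FIP2 knockout library 1 (0.54, 0.134), and in a fit to the compared libraries alone (0.72, 0.0742). Over the 27 alternatives the adjusted p ran from 0.00204 to 0.134. The FIP1 difference of 0.28 ± 0.20 had an adjusted p of 0.432, and was 0.53 without wild-type proximal library 2. Neither knockout's Egfr difference was found to differ between segments (FIP1 -0.52 ± 0.29, adjusted p 0.644, and FIP2 -0.33 ± 0.29, adjusted p 0.771), with -0.26 and -0.09 without that library.

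Erbb2 (chr11:98412470-98437716) and Erbb3 (chr10:128567523-128589652), the partner receptors, had lower means in every knockout group than in wild type, with a wide spread in wild type. Erbb2 stood at 111, 128 and 247 CPM in distal wild type, at 110, 115 and 99.1 CPM in the distal FIP1 knockout and at 79.1, 79.4 and 102 CPM in the distal FIP2 knockout. In the proximal colon it stood at 186, 87.8 and 300 CPM in wild type, 124, 161 and 102 CPM in the FIP1 knockout and 83.4, 91.1 and 95.5 CPM in the FIP2 knockout. Wild-type library 3 was the highest in both segments, and proximal wild-type library 2 lay within the range of the FIP2 knockout.

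Erbb2 passed the test in the proximal FIP2 knockout, at -1.09 ± 0.33 (adjusted p 0.0312). That call rests on single libraries: it was lost without any of wild-type library 1 (-1.10, adjusted p 0.0658), wild-type library 3 (-0.60, 0.239) or FIP2 knockout library 1 (-1.02, 0.102), 2 (-1.09, 0.0828) or 3 (-1.13, 0.071), in a fit to the compared libraries alone and by limma on FPKM, within a range over the 27 alternatives of 9.03e-07 to 0.281. With wild-type proximal library 2 left out the difference was -1.42, and that of the proximal FIP1 knockout was -0.91 (adjusted p 0.0334, within a range of 0.0334 to 0.901). The other Erbb2 differences were -0.90 ± 0.32 in the distal FIP2 knockout (adjusted p 0.0604), -0.58 ± 0.32 in the distal FIP1 knockout (0.246) and -0.57 ± 0.32 in the proximal FIP1 knockout (0.282). Reads from the neighbouring gene Mien1, which overlaps an exon of Erbb2 on the opposite strand, cannot be told apart from Erbb2 reads, since a strand setting is not given in the sources used here. Mien1 had 189 to 596 counts a library and Erbb2 799 to 4001.

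Erbb3 passed the test in none of the 11 comparisons. It stood at 241, 230 and 525 CPM in distal wild type, 215, 254 and 209 CPM in the distal FIP1 knockout and 173, 169 and 219 CPM in the distal FIP2 knockout. The proximal values were 317, 209 and 525 CPM in wild type, 241, 373 and 214 CPM in the FIP1 knockout and 195, 204 and 219 CPM in the FIP2 knockout. Wild-type library 3 was again far above the rest in both segments. The difference from wild type was -0.83 ± 0.31 (adjusted p 0.07, called in 6 of the 27 alternatives over 0.000948 to 0.501) in the distal and -0.77 ± 0.31 (adjusted p 0.104) in the proximal FIP2 knockout. Without wild-type proximal library 2 the proximal one was -1.02 (adjusted p 0.0236, within a range over the alternatives of 0.00255 to 0.52). The FIP1 differences were -0.55 ± 0.31 distally and -0.34 ± 0.31 proximally (adjusted p 0.249 and 0.529), the latter -0.60 without that library.

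Erbb2 and Erbb3 followed each other across libraries more closely than any other pair in the set. Pearson's r of their log2 CPM was 0.971 over the 18 libraries (Spearman's rho 0.955), and 0.927 without the libraries farthest from the Erbb2 median. The libraries share group, segment and normalization, so r is a description. The next pair was Areg with Ereg at 0.759 (rho 0.725), followed by Tgfa with Errfi1 at 0.647 and Btc with Egfr at 0.62. The lowest were Btc with Erbb2 at -0.651 and Egfr with Erbb2 at -0.631.

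**Figure D3:**
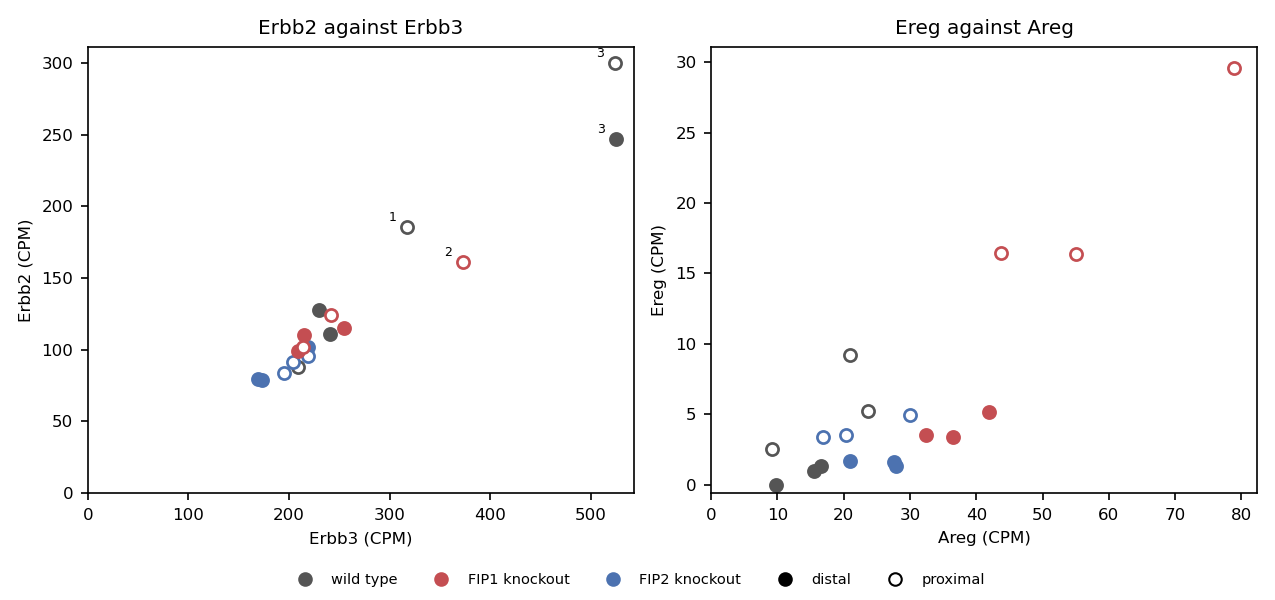
Erbb2 against Erbb3 and Ereg against Areg, both axes in CPM, 1 point per library, filled for distal and open for proximal colon. On the left the small numbers give the library number of the points above 300 CPM of Erbb3, with wild-type library 3 of both segments at the top, and on the right the 3 proximal FIP1 knockout libraries lie above all others.

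Hbegf (chr18:36504929-36515805), heparin-binding EGF-like growth factor, was higher in both distal knockouts, with the lowest adjusted p of any member, and in neither proximal one. In distal wild type it stood at 5.78, 5.84 and 8.76 CPM, in the distal FIP1 knockout at 20.6, 19.4 and 16.9 CPM and in the distal FIP2 knockout at 36.1, 31.5 and 29.8 CPM. The 3 groups did not overlap. The FIP1 knockout was higher than wild type by 1.48 ± 0.23, or 2.79-fold (adjusted p 0.000246), and the FIP2 knockout by 2.26 ± 0.23, or 4.78-fold (adjusted p 2.42e-06). Both calls held in all 27 alternatives.

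In the proximal colon Hbegf stood at 22.1, 12.1 and 25.04 CPM in wild type, at 29.4, 23.7 and 21.1 CPM in the FIP1 knockout and at 19.0, 16.4 and 16.3 CPM in the FIP2 knockout. Both knockouts overlapped wild type, with differences of 0.32 ± 0.22 (adjusted p 0.399) and -0.20 ± 0.22 (adjusted p 0.587). Without that lowest wild-type library 2, they were 0.07 and -0.44. The proximal FIP2 effect was lower than the distal one by -2.46 ± 0.32 (adjusted p 0.00144) and by -2.71 without that library. This difference between segments was called for 0.328% of all tested genes, 0.0735% higher and 0.254% lower. For the FIP1 knockout the same difference was -1.16 ± 0.32 with an adjusted p of 0.119, which fell to 0.0178 without wild-type proximal library 2 (-1.40), within a range over the 27 alternatives of 0.0161 to 0.462.

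In order of mean, Hbegf ran from 32.5 ± 3.26 CPM (SD, n = 3) in the distal FIP2 knockout through 24.7 ± 4.25, 19.7 ± 6.78, 19.0 ± 1.86 and 17.2 ± 1.55 CPM in proximal FIP1 knockout, proximal wild type, distal FIP1 knockout and proximal FIP2 knockout to 6.79 ± 1.70 CPM in distal wild type. The 4 middle groups overlapped their neighbours, and the highest and the lowest group did not. The list of 9 macrophage and dendritic cell genes, cells that can also make this ligand, summed to 33.4 to 55.4 CPM in distal wild type, 75.8 to 105 CPM in the distal FIP1 knockout and 128 to 261 CPM in the distal FIP2 knockout. In the proximal colon the sums were 23.8 to 73.6, 56.4 to 63.9 and 65.7 to 171 CPM. Of the 9 genes, 2 were called higher in the distal FIP1 knockout and 1 in the distal FIP2 knockout, and the difference was positive for 9 and 8. In the proximal colon 2 were called higher in the FIP1 knockout and 3 in the FIP2 knockout. There the difference was positive for only 4 and 3 of the 9, with medians of -0.0015 and -0.71. None was called lower in the 4 comparisons. Their part in the Hbegf result was not tested, and fewer or more cells of a type and less or more RNA per cell cannot be told apart in bulk samples.

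**Figure D4:**
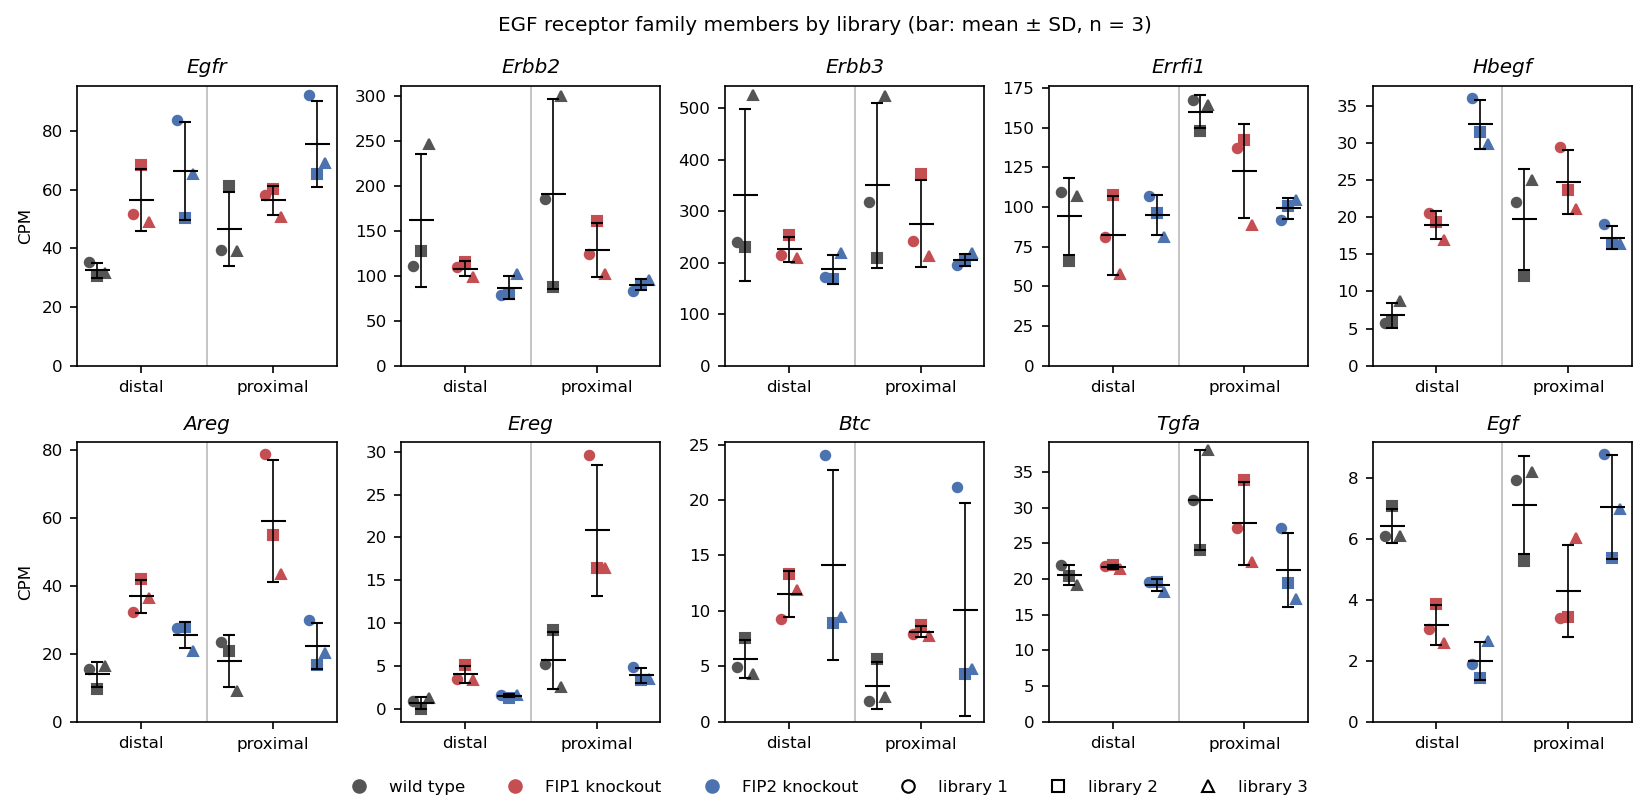
CPM of each of the 10 genes in every library, by segment and genotype, with group mean and SD (n = 3). Hbegf forms 3 separate distal groups and overlapping proximal ones, library 1 of the FIP2 knockout is high for Btc in both segments, and library 3 of wild type is high for Erbb2 and Erbb3 in both.

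Areg, amphiregulin, rose in the FIP1 knockout in both segments. Distally it stood at 15.6, 9.81 and 16.6 CPM in wild type, 32.5, 42.0 and 36.4 CPM in the FIP1 knockout and 27.7, 27.8 and 21.02 CPM in the FIP2 knockout. Both knockouts were above wild type in every library. The FIP1 difference was 1.40 ± 0.30, or 2.64-fold (adjusted p 0.00359), and called in all 27 alternatives. The FIP2 difference of 0.87 ± 0.30 lay at an adjusted p of 0.0503. It was called in 14 of the 27 alternatives, whose adjusted p ran from 0.000298 to 0.182.

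Proximally Areg stood at 23.6, 20.9 and 9.22 CPM in wild type, 78.9, 55.1 and 43.7 CPM in the FIP1 knockout and 30.0, 16.9 and 20.4 CPM in the FIP2 knockout. The FIP1 knockout libraries were above all others and the FIP2 knockout overlapped wild type. The FIP1 difference was 1.73 ± 0.30, or 3.32-fold (adjusted p 0.000743), again called in all 27 alternatives and 1.86 without wild-type proximal library 2. The FIP2 difference was 0.33 ± 0.30 (adjusted p 0.497), or 0.46 without it. Compared directly, the proximal FIP1 knockout was above the proximal FIP2 knockout by 1.40 ± 0.30 (adjusted p 0.0149).

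Ereg, epiregulin, the scarcest ligand per length in the deposited FPKM, was also higher in the FIP1 knockout in both segments. Distally it stood at 0.98, 0 and 1.34 CPM in wild type, 3.55, 5.19 and 3.40 CPM in the FIP1 knockout and 1.602, 1.348 and 1.695 CPM in the FIP2 knockout. Proximally it stood at 5.25, 9.23 and 2.55 CPM in wild type, 29.6, 16.4 and 16.5 CPM in the FIP1 knockout and 4.97, 3.37 and 3.54 CPM in the FIP2 knockout. The FIP1 knockout libraries were above wild type in both segments, and the FIP2 knockout overlapped wild type proximally.

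The distal FIP1 difference in Ereg was 2.34 ± 0.57 (adjusted p 0.00866), resting on 36 counts in wild type and 183 in the knockout over 3 libraries each, and it was lost only by limma on log2(FPKM + 1) without a filter (0.79, adjusted p 0.0614, with the lowest at 3.31e-09). The proximal one was 1.89 ± 0.48, or 3.72-fold (adjusted p 0.013). Leaving out FIP1 knockout proximal library 1 (1.57, adjusted p 0.0795) or wild-type proximal library 3 (1.54, 0.0564) ended that call, within a range of 7e-09 to 0.0795, and was 2.42 without wild-type proximal library 2. The FIP2 differences were 0.96 ± 0.59 distally (adjusted p 0.271) and -0.50 ± 0.49 proximally (adjusted p 0.532), or 0.03 without wild-type proximal library 2. The proximal FIP1 knockout was above the proximal FIP2 knockout by 2.40 ± 0.49 (adjusted p 0.0113).

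These direct proximal comparisons of the knockouts called 2.75% of all genes, 1.33% as higher and 1.42% as lower in the FIP1 knockout, and the groups did not overlap for 27.1%. Areg and Ereg were the 2 of the 10 genes called. Both calls were lost without any of FIP1 knockout proximal library 1 or FIP2 knockout proximal library 2 or 3, where the adjusted p was 0.0701 to 0.0831 for Areg and 0.0591 to 0.0636 for Ereg. The lowest over the alternatives were 4.72e-10 and 9.08e-13. In the distal colon, where 1.86% of all genes were called and 22.7% did not overlap, none of the 10 genes passed the test between the knockouts by edgeR, 3 had an unadjusted p under 0.05, and DESeq2 called 1. Hbegf was nearest there, lower in the FIP1 knockout by -0.78 ± 0.22 (adjusted p 0.0781), and was called without wild-type proximal library 2 (-0.79, adjusted p 0.0188, within a range of 0.00977 to 0.31). Lymphocytes also make amphiregulin, and 6 and 8 of the 13 T cell and innate lymphocyte genes were called higher in the proximal FIP1 and FIP2 knockouts. Their part in the Areg values was not tested.

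Btc, betacellulin, had a higher mean in every knockout group than in wild type but passed the test in none. Distally it stood at 4.98, 7.57 and 4.35 CPM in wild type, 9.28, 13.4 and 11.9 CPM in the FIP1 knockout and 24.0, 8.94 and 9.44 CPM in the FIP2 knockout. Proximally it stood at 1.86, 5.71 and 2.25 CPM in wild type, 7.95, 8.73 and 7.76 CPM in the FIP1 knockout and 21.2, 4.34 and 4.76 CPM in the FIP2 knockout. FIP2 knockout library 1 was well above the other libraries of its group in both segments, and the FIP2 knockout without it overlapped wild type proximally but not distally.

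The Btc differences were 1.03 ± 0.52 (adjusted p 0.194) and 1.35 ± 0.55 (0.116) in the distal and proximal FIP1 knockout, and 1.33 ± 0.51 (0.0785) and 1.65 ± 0.55 (0.0509) in the FIP2 knockout. Over the alternatives the proximal FIP2 value ran from 0.53 to 2.28 and its adjusted p from 1.89e-07 to 0.52. Without wild-type proximal library 2 the proximal differences were 1.99 (adjusted p 0.0429) and 2.28 (adjusted p 0.0167), and for FIP1 the adjusted p ran from 2.5e-05 to 0.305 over the alternatives.

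Tgfa (chr6:86195223-86275719), transforming growth factor alpha, varied least. Distally it stood at 21.9, 20.4 and 19.2 CPM in wild type, 21.8, 21.9 and 21.4 CPM in the FIP1 knockout and 19.6, 19.6 and 18.2 CPM in the FIP2 knockout. The distal differences were 0.08 ± 0.19 (adjusted p 0.832) and -0.10 ± 0.19 (0.762). Proximally the libraries stood at 31.1, 24.1 and 38.0 CPM in wild type, 27.2, 33.9 and 22.3 CPM in the FIP1 knockout and 27.1, 19.5 and 17.1 CPM in the FIP2 knockout. All 3 proximal groups overlapped. The proximal differences were -0.17 ± 0.19 (adjusted p 0.637) in the FIP1 knockout and -0.55 ± 0.19 (adjusted p 0.0582) in the FIP2 knockout. With wild-type proximal library 2 left out they were -0.31 and -0.70 (adjusted p of the latter 0.0158, within a range of 0.0158 to 0.358).

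Egf (chr3:129677565-129755316), the ligand that names the family, was the only member called lower in a distal knockout. Distal wild-type libraries held 6.09, 7.07 and 6.09 CPM, the FIP1 knockout 3.06, 3.88 and 2.59 CPM and the FIP2 knockout 1.91, 1.44 and 2.66 CPM. Both knockouts were below wild type in every library and overlapped each other. The FIP2 knockout was lower by -1.68 ± 0.30 (adjusted p 0.000871), called in all 27 alternatives. The FIP1 knockout was lower by -1.02 ± 0.30 (adjusted p 0.0244). Leaving out wild-type distal library 2 (-0.94, adjusted p 0.0766) or either FIP1 knockout distal library 1 (-0.997, 0.0713) or 3 (-0.89, 0.109) ended that call, as did all 3 limma fits on FPKM, with a highest adjusted p of 0.165 and a lowest of 0.00824.

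In the proximal colon Egf stood at 7.92, 5.27 and 8.17 CPM in wild type, 3.41, 3.44 and 6.01 CPM in the FIP1 knockout and 8.79, 5.37 and 6.97 CPM in the FIP2 knockout. Both knockouts overlapped wild type, with differences of -0.72 ± 0.29 (adjusted p 0.112) and -0.02 ± 0.29 (adjusted p 0.969), or -0.89 and -0.19 without wild-type proximal library 2. The FIP2 effect was higher proximally than distally by 1.66 ± 0.42, with an adjusted p of 0.112 by edgeR (1.49 without that library). DESeq2 and the fit without a filter called it, at 0.0179 and 0.0259, and the highest over the 27 alternatives was 0.322.

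Errfi1 (chr4:150853919-150868892), the inhibitor, was called higher in neither knockout and lower in the proximal FIP2 knockout. Distally it stood at 109, 66.2 and 107 CPM in wild type, 81.3, 108 and 57.5 CPM in the FIP1 knockout and 107, 96.4 and 81.4 CPM in the FIP2 knockout. The distal groups overlapped, with differences of -0.20 ± 0.22 (adjusted p 0.612) and 0.01 ± 0.22 (0.977). Proximally it stood at 168, 148 and 165 CPM in wild type, 137, 142 and 88.8 CPM in the FIP1 knockout and 92.1, 101 and 105 CPM in the FIP2 knockout. All 6 proximal knockout libraries were below all 3 proximal wild-type libraries.

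The proximal FIP2 difference in Errfi1 was -0.69 ± 0.22 (adjusted p 0.0442), and the FIP1 difference -0.38 ± 0.22 had an adjusted p of 0.29. Without wild-type proximal library 2 they were -0.73 and -0.43. The FIP2 call held in 14 of the 27 alternatives, whose adjusted p ran from 0.00629 to 0.225. It was lost without any of the compared libraries other than wild-type library 2 (adjusted p 0.0858 to 0.136), without 5 libraries of other groups (0.0506 to 0.0584), and by the 3 limma fits. Its values there stayed between -0.73 and -0.53.

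Between segments, 4 of the 10 genes were higher in the proximal than in the distal colon of wild type, where 8.96% of all genes were called higher, 7.39% lower and 16.4% in all, and 28.3% did not overlap. The same 4 were called without wild-type proximal library 2. Hbegf was higher by 1.54 ± 0.23, or 2.92-fold (adjusted p 9.78e-05), and Ereg by 2.81 ± 0.57 (adjusted p 0.00172), both called in all 27 alternatives. With wild-type proximal library 2 left out they were 1.80 and 2.30, and the differences of Errfi1 and Tgfa, given next, were 0.83 and 0.76. Errfi1 was higher by 0.77 ± 0.22 (adjusted p 0.023), a call that did not hold without library 2 of the distal group (0.56, adjusted p 0.133) or library 1 (0.73, 0.0649) or 3 (0.74, 0.0524) of the proximal group, nor by limma on FPKM, over a range of 0.00121 to 0.133. Tgfa was higher by 0.60 ± 0.19 (adjusted p 0.0366), a call kept in 15 of the 27 alternatives (0.00998 to 0.283). It was lost without each of the 3 distal libraries or proximal library 1 or 3, where the adjusted p was 0.069 to 0.169, without 3 libraries of other groups (0.0532 to 0.0547), with the compared libraries alone and by limma.

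In the knockouts the segments differed in other members. In the FIP1 knockout only Ereg was called among the 10, higher in the proximal colon by 2.37 ± 0.49, or 5.17-fold (adjusted p 0.00375), where 2.94% of all genes were called higher, 3.65% lower and 6.6% in all, and 23.2% did not overlap. In the FIP2 knockout, where 4.99% of all genes were called higher, 4.49% lower and 9.47% in all, Egf was higher proximally by 1.82 ± 0.30, or 3.52-fold (adjusted p 0.000459). Hbegf was lower proximally there by -0.91 ± 0.22 (adjusted p 0.0104), opposite in direction to wild type. The Hbegf call was lost without FIP2 knockout proximal library 3 (adjusted p 0.0543) and by limma without a filter (0.0612), with a lowest of 0.000435. For the difference of the FIP1 effect between segments, which called 0.644% of all genes, none of the 10 was called by edgeR, 1 had an unadjusted p under 0.05, and DESeq2 called 1, Hbegf.

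**Figure D5:**
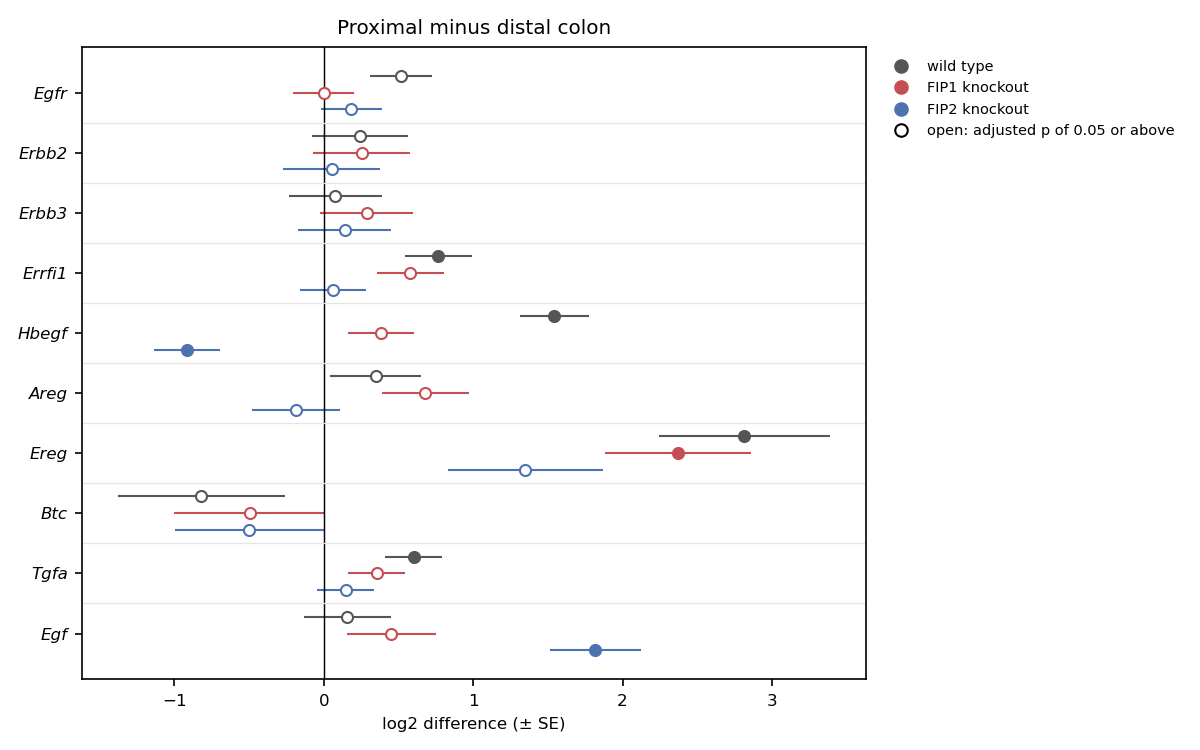
Log2 difference of proximal minus distal colon (± SE) in each genotype, filled where the adjusted p is under 0.05. Hbegf is to the right of 0 in wild type and to the left in the FIP2 knockout, Ereg is right of 0 in all 3 genotypes, and Egf stands apart in the FIP2 knockout.

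Of the family's remaining ligand and receptor genes, Epgn, Nrg1, Nrg2, Nrg3, Nrg4 and Erbb4, 3 had enough counts to test. Counts of called genes in this and the next lists stand beside the same shares of all genes as above. In the distal FIP1 knockout 8.84% of all genes were called higher and 7.47% lower. The shares were 9.13% and 9.38% in the distal FIP2 knockout, 6.7% and 6.89% in the proximal FIP1 knockout and 7.6% and 7.07% in the proximal FIP2 knockout. Epgn, epigen, the neighbour of Ereg, had 0 counts over the 3 distal wild-type libraries, 56 in the distal FIP1 knockout and 55 in the distal FIP2 knockout. Taking 3 counts summed over distal wild type as the floor, it was at least 18.04-fold and at least 13.9-fold higher (adjusted p 0.00162 and 0.00287). The level stayed low, at 1.27 ± 0.638 and 0.919 ± 0.229 CPM (SD, n = 3).

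Some of the proteases that release the ligands were also higher in the distal knockouts. Of 8 tested genes of ligand shedding, the distal FIP1 knockout had 3 higher and none lower (16.3% of all genes called), and in the distal FIP2 knockout 4 were higher and 1 was lower (18.5%). Adam10 went from 94.5 ± 8.34 CPM (SD, n = 3) in distal wild type to 171 ± 31.8 CPM in the FIP1 knockout (0.86 ± 0.17, adjusted p 0.00239) and 176 ± 16.8 CPM in the FIP2 knockout (0.89 ± 0.17, adjusted p 0.00164). Adam17, the main sheddase of Areg, Hbegf and Tgfa, was higher in the distal FIP2 knockout by 0.61 ± 0.14 (adjusted p 0.00596). These calls held when any library was left out. Proximally 3 of the 8 were higher in the FIP1 knockout and 2 in the FIP2 knockout, and none was called lower in either (13.6% and 14.7% of all genes called). Without wild-type proximal library 2, 2 were higher and 1 lower, and 4 were higher and 1 lower.

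Of 16 genes that damp the receptor or its signal, the distal FIP1 knockout had 2 higher and 1 lower, a share near the 16.3% of all genes called. In the distal FIP2 knockout 4 were higher and 1 lower, where 18.5% of all genes were called. Cblb, a ubiquitin ligase that sends active receptors to degradation, was the one lower in both: 26.6 ± 0.957 CPM in distal wild type, 14.7 ± 0.572 CPM in the FIP1 knockout (-0.85 ± 0.18, adjusted p 0.00336) and 12.5 ± 1.99 CPM in the FIP2 knockout (-1.09 ± 0.18, adjusted p 0.000428). Spry4, a feedback inhibitor of the ERK pathway, was higher in the distal FIP2 knockout by 1.51 ± 0.37 (adjusted p 0.00797), at 5.52 ± 1.77 against 1.93 ± 0.356 CPM. It was also called higher in the distal FIP1 knockout, at 1.09 ± 0.37 (adjusted p 0.049), and in 14 of the 27 alternatives there. Proximally 1 was lower in the FIP1 knockout, again Cblb (-0.71 ± 0.18, adjusted p 0.0144). The Cblb call was lost without library 3 of wild type (-0.44, adjusted p 0.115) or library 1 or 3 of the FIP1 knockout (0.0589 and 0.0511), over a range of 0.00363 to 0.192, and the difference was -0.83 without wild-type proximal library 2. In the proximal FIP2 knockout 1 of the 16 was higher and none lower, and 3 were higher and 2 lower without wild-type proximal library 2, where 19.6% of all genes were called. The 1 gene was Lrig1, which lowers receptor levels, at 0.70 ± 0.18 (adjusted p 0.0127), or 0.61 without FIP2 knockout proximal library 1 (adjusted p 0.0543, the highest of a range from 0.00259) and 0.64 without wild-type proximal library 2. In wild type 4 of the 16 were lower proximally and none higher, where 7.39% of all genes were called lower and 8.96% higher, and 3 were lower and 1 higher without library 2. Lrig1 was among them, with Lrig1 at 81.0 ± 10.1 CPM distally and 43.6 ± 4.15 CPM proximally (-0.89 ± 0.18, adjusted p 0.00144, and -0.81 without that library).

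Of 22 genes of signal transduction, 2 were lower and none higher in the distal colon of each knockout, near the 7.47% and 9.38% of all genes called lower there. Proximally 1 was higher and 2 lower in the FIP1 knockout, and 3 were lower in the FIP2 knockout, where 6.89% and 7.07% of all genes were called lower. With wild-type proximal library 2 left out these were 2 and 4 lower and none higher. Gab1, the docking protein that links the receptor to PI3K, was lower in all 4 comparisons. It went from 24.0 ± 6.81 CPM in distal wild type to 11.2 ± 0.954 CPM in the FIP1 knockout (-1.11 ± 0.23, adjusted p 0.00326) and 10.2 ± 1.22 CPM in the FIP2 knockout (-1.24 ± 0.23, adjusted p 0.00127). The proximal differences were -0.78 ± 0.23 (adjusted p 0.0318) and -1.04 ± 0.23 (adjusted p 0.00619), and both were lost without wild-type proximal library 3 (-0.47, 0.206, and -0.74, 0.0528). Without library 2 they were -0.99 and -1.25. The FIP1 call was also lost without wild-type proximal library 1 or any FIP1 knockout proximal library (adjusted p 0.0516 to 0.125). Over all alternatives the ranges were 0.0048 to 0.285 and 0.000183 to 0.0938.

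Of 24 tested immediate-early and ERK-induced genes, 6 were called higher and none lower in the distal FIP2 knockout, where 9.13% of all genes were called higher and 9.38% lower. The difference was positive for 13 of the 24. ERK activity was not measured, and some of these genes also answer to other signals. The distal FIP1 knockout had 3 higher and 1 lower, a share near the 16.3% of all genes called. Dusp6, a phosphatase that inactivates ERK, went from 38.5 ± 4.56 CPM in distal wild type to 92.1 ± 21.8 CPM in the distal FIP2 knockout (1.26 ± 0.23, adjusted p 0.000999), and Atf3, a stress-induced transcription factor, from 18.5 ± 4.82 to 41.7 ± 9.52 CPM (1.17 ± 0.27, adjusted p 0.00553). Atf3 was also higher in the distal FIP1 knockout, at 45.6 ± 6.73 CPM, or 2.46-fold (adjusted p 0.00283). Egr1, an immediate-early transcription factor, was higher in the distal FIP2 knockout by 1.49 ± 0.37 (adjusted p 0.00853), a call lost without FIP2 knockout distal library 2 (1.07, adjusted p 0.0645, the highest of a range from 1.71e-06). Proximally none of the 24 passed the test in the FIP1 knockout by edgeR (5 had an unadjusted p under 0.05), and 1 was higher and 1 lower in the FIP2 knockout (14.7% of all genes called). The higher gene was Dusp6, at 0.79 ± 0.23 (adjusted p 0.0289, called in 22 of the 27 alternatives), in a comparison where Hbegf was not called. Without wild-type proximal library 2 the FIP2 count was 1 higher and 4 lower, where 19.6% of all genes were called. The list median was 0.14 in the distal FIP2 knockout and 0.05 in the distal FIP1 knockout, beside 0 and -0.0022 for all genes.

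Between segments of the FIP2 knockout, 4 of these 24 genes were lower proximally and 1 was higher, where 4.49% of all genes were called lower and 4.99% higher. Fosb, an AP-1 subunit, fell from 4.69 ± 0.395 CPM distally to 0.747 ± 0.260 CPM proximally (-2.62 ± 0.46, adjusted p 0.000664), and Spry4, of the damping list, from 5.52 ± 1.77 to 1.73 ± 0.355 CPM (-1.67 ± 0.37, adjusted p 0.00533). Hbegf was lower proximally in the same libraries. In wild type 3 of the 24 were higher and 3 lower proximally, where 16.4% of all genes were called, and 3 were higher and 1 lower without library 2. Etv4, an ETS transcription factor, stood at 18.1 ± 4.14 CPM distally and 2.14 ± 0.165 CPM proximally (-3.08 ± 0.43, adjusted p 4.15e-05, and -3.10 without that library).

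Likeness was searched over 12009 protein-coding genes averaging 1 CPM or more. Those whose log2 CPM was most like each member's over the 18 libraries were as follows, by Pearson's r. For Hbegf they were Tnfsf13b (0.914), Slc35g1 and Nfkbiz. For Areg they were Acot9 (0.898), Cd55 and Myl12a, and for Ereg Slc35d2 (0.926), Apol6 and Ceacam1. Btc was most like Nt5c1a (0.919), Dnm1l and Krt36, Tgfa most like Baz2b (0.881), Npc1 and Btbd3, and Egf most like Cbfa2t3 (0.908), Rap1gap and Boc. Egfr went with Galnt3 (0.935), Galnt1 and Gcc2, and Errfi1 with Slc35f5 (0.86), Vapa and Foxj3. Erbb2 was most like Erbb3 (0.971), Ush1c (0.959) and Nr1i2, and Erbb3 most like Erbb2, Fbxl20 (0.937) and Nr1i2. No member's nearest genes included another member except for Erbb2 and Erbb3.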

How the data were processed

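The values used are the deposited read counts per gene for 54532 genes in 18 libraries of mouse colonic epithelium, and the deposited FPKM values (level per length). Per the submitters' processing notes, HTSeq 0.6.1, DESeq2, TopHat and STAR 2.5 were used, and mm10 and GRCm38 are the builds given, with no role for any; strand setting and annotation are not given in the sources used here. Each FPKM that the authors deposited equalled the count divided by the library total and by 1 length per gene (33096 of 33096 genes with counts, tolerance 1e-04).

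Deposited counts went into edgeR 4.0.16 (R 4.3.3) with TMM factors, the filterByExpr filter (17692 genes tested, 21436 had no count), and 1 quasi-likelihood fit to all 18 libraries (square root of the common dispersion 0.234). There were 11 contrasts, with p-values adjusted over all tested genes by the Benjamini-Hochberg method and calls at 0.05. SE is the log2 difference divided by the square root of F. CPM uses TMM-scaled totals. The scripts were tested on simulated data. Precision is set by 3 libraries a group and the 11193308 to 22062300 counts of each; floors cover counting error only.

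Alternatives were relative log expression factors, no filter, a replicate block, DESeq2 1.42.0, only the compared libraries, limma 3.58.1 on log2(FPKM + 0.1) and, with and without a filter, on log2(FPKM + 1), no mitochondrially encoded genes, and leaving out each of the 18 libraries. Libraries with the same number in both segments deviated together in the FIP2 knockout (residual correlations 0.355, 0.2 and 0.242). The correlations were 0.2, 0.175 and 0.0683 in the FIP1 knockout and -0.0816, 0.11 and 0.169 in wild type. This is a hint of pairs from the data and not the labels. Only the replicate block used those numbers. It took them as pairs within a genotype for the comparisons between segments, including those of knockout effects. For the comparisons between genotypes it took each number as shared by all groups, so no pairs were modelled there. The main fit had 1 mean per group and took all libraries as independent. No 2 libraries of a group were duplicates.

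The members, the 5 pathway lists and the 11 cell marker lists were chosen with earlier results of these data known. Named are all 10 members, Rab11fip1 and Rab11fip2, up to 4 called genes per pathway list and contrast by adjusted p, the 3 genes most like each member, and marker lists by their sums. Figures were drawn in matplotlib 3.10.9 (Python 3.11.15).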

Additional observations from a re-analysis of the deposited data

Results flagged for a closer look

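Hbegf showed different FIP2 knockout effects in the segments by a test of the difference itself: the log2 effect was 2.26 ± 0.23 distally and -0.20 ± 0.22 proximally, a difference of -2.46 ± 0.32 (edgeR adjusted p 0.00144). It was called in all 27 alternatives, with values from -2.71 to -2.00 and adjusted p from 1.34e-12 to 0.0267.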

How the results depend on the processing

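None of the 110 member values (10 genes in 11 comparisons) changed direction while called in any of the 27 alternatives. The calls stayed on their side of the threshold for 109 of 110 values with relative log expression factors, 110 without mitochondrially encoded genes, 105 with the replicate block, 104 with limma on log2(FPKM + 1) or log2(FPKM + 0.1), 102 with limma without a filter, 101 with DESeq2, 100 with the compared libraries alone and 93 without a filter. The limma fits with a filter moved the median of all genes by up to 0.12 and 0.17 (log2), the other settings by less. Counts of called members moved as follows. In the distal FIP1 knockout 5 became 3 by limma without a filter. In the distal FIP2 knockout 3 became 7 without a filter, 6 with the compared libraries alone and 6 with DESeq2, and ran from 3 to 6 when a library was left out. In the proximal FIP2 knockout 3 became 5 without a filter, 1 with the compared libraries alone, 5 with DESeq2 and 1 with each limma fit, and 0 to 6 with a library left out. The proximal FIP1 count of 2 ran from 1 to 4 with a library left out. Between the knockouts 0 became 2, 2 and 1 distally (no filter, compared libraries alone, DESeq2; 0 to 1 with a library left out), and 2 became 1 proximally by limma without a filter (0 to 2). Between segments 4 became 2 in wild type with each limma fit, 3 with the compared libraries alone, 5 without a filter and 6 with the replicate block (2 to 4), 1 became 3 in the FIP1 knockout without a filter and 2 with the replicate block (1 to 2), and 2 became 1 in the FIP2 knockout by limma without a filter (1 to 3). For the FIP1 effect between segments 0 became 1 without a filter, with the replicate block and with DESeq2 (0 to 1), and for the FIP2 effect 1 became 2 without a filter and with DESeq2. The replicate block changed no member call in the FIP2 knockout between segments. Counts over all genes moved by more than 1.5 times, from 2404, 2594 and 2893 to 1287, 1511 and 1810 with the compared libraries alone (proximal FIP1, proximal FIP2, wild type between segments), from 3274 to 2063 by limma without a filter (distal FIP2), from 329 to 1154 and 744 and from 486 to 1398 and 1037 without a filter and with DESeq2 (distal and proximal, between knockouts), with 299 by limma without a filter proximally, and for the FIP1 and FIP2 effects between segments from 114 and 58 to 644 and 483 without a filter, 262 and 202 with the block, 339 and 246 with DESeq2 and 185 and 120 by limma on log2(FPKM + 1). With a library left out these counts ran from 1775 to 3566 and 1509 to 2503 (distal and proximal FIP1), 1851 to 4089 and 1554 to 3608 (FIP2), 105 to 530 and 190 to 945 (between knockouts), 2045 to 2986, 682 to 1414 and 1062 to 1942 (between segments of wild type, FIP1 and FIP2 knockout), and 40 to 154 and 34 to 77 (FIP1 and FIP2 effects), so the shares of all genes called move with them. The cause of these changes was not tested. Ereg and Egf are limited by depth: distal wild type held 36 counts of Ereg in all.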

Other observations

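Library 1 of the FIP2 knockout had the highest Btc value of its group in both segments, 24.0 CPM distally and 21.2 CPM proximally, where the other 4 FIP2 knockout libraries held 4.34 to 9.44 CPM. It also had the highest Egfr value of its group in both segments, at 83.9 and 92.3 CPM. Without its proximal library the Btc difference between segments of the FIP2 knockout was -1.63 (adjusted p 0.0303), against -0.50 with it (0.702), and the alternatives ran from 0.0303 to 0.958. Library 3 of wild type had the highest Erbb2 and Erbb3 values in both segments. These libraries were singled out after their values were seen.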
